A study of Homo sapiens with 12 samples.

Results

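Chaperones are proteins that help other proteins fold, keep them from clumping and hand them on for repair or breakdown. The genes described here are 35 chaperones and their partners, listed by gene symbol, with earlier results of these data known: 22 act in the cytosol, 10 in the endoplasmic reticulum (ER) and 3 in mitochondria. All 35 were found among the 26485 gene symbols counted in every library. They were measured in DLD1, an established human colon cancer cell line, 1 h after one of 4 additions: DMSO, the solvent that serves as the control, or 10 µM of TCDD, kynurenine or CH223191. TCDD is a dioxin and a strong agonist of the aryl hydrocarbon receptor (AHR), kynurenine is a tryptophan metabolite that can act as an AHR ligand, and CH223191 is a synthetic AHR antagonist. The labels write CH for the last group, and the series title gives the compound's name. Each group had 3 libraries made from polyA RNA, 12 in all, all from this single line, and the labels do not say which of them, if any, were cultured apart, so p-values measure the spread between these libraries, which may be technical.

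Cytosolic chaperones work as chains: HSP70 proteins bind unfolded stretches, J proteins bring clients and speed ATP use, HSP110 proteins reset HSP70 by exchanging nucleotide, and HSP90 with its cochaperones finishes kinases and receptors. Many of these genes are controlled by heat shock factor HSF1, while ER chaperones answer to the unfolded protein response (UPR), which runs through the sensors IRE1, PERK and ATF6. The AHR is itself an HSP90 client: before it binds a ligand it waits in the cytosol in a complex with HSP90 and PTGES3.

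Between 21397703 and 28247146 reads were assigned to genes per library. Libraries from TCDD held fewer reads (22834076 to 24726740) than those from DMSO (26403109 to 27579937), and a larger share of their alignments was not unique (3.27% to 3.91% against 2.63% to 3.07%); the part of this in the results on TCDD was not tested. All 7 epithelial markers passed the low-count filter, summing to 8868 to 9928 CPM (counts scaled to library size), whereas markers of fibroblasts, immune cells and endothelium summed to at most 1.3, 16.2 and 3.15 CPM, with DCN and KDR at 0 in every library. The epithelial markers were uneven, with KRT8 at 4324 to 4928 CPM and VIL1 at 1.99 to 2.97. LYZ, of the immune list, had 2.05 to 10.4 CPM. CYP1A1, a direct AHR target used here to check the labels, stood at 3.22 ± 0.142 CPM (SD, n = 3) in DMSO, 427.6 ± 15.9 in TCDD, 10.1 ± 1.01 in kynurenine and 0.52 ± 0.188 in CH223191. The other AHR targets checked, CYP1B1, AHRR and TIPARP, also rose with TCDD and fell with CH223191, but with kynurenine CYP1B1 fell by 0.37 on the log2 scale (edgeR adjusted p = 2.4e-07) and TIPARP by 0.21 (adjusted p = 0.027), and AHRR was at -0.28 (adjusted p = 0.55). CPM are shares of the RNA sampled, so a change in the amount of RNA per cell cannot be told apart from a change in 1 transcript.

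Of the 35 members, 33 were tested. HSPB8, a small heat shock protein, had 1 read in all 12 libraries together, and CRYAB, the small heat shock protein of lens and muscle, had 0 to 8 reads per library. To compare levels between genes, CPM were divided by the length of the MANE Select transcript in kilobases (RPKM). By this measure HSPA8, the constitutive cytosolic HSP70, was the highest in DMSO at 1927 ± 75.5 RPKM (SD, n = 3), followed by the HSP90 genes HSP90AB1 at 1714 ± 22.4 and HSP90AA1 at 1582 ± 62.5. The mitochondrial chaperonin HSPD1 came next at 837 ± 22.9 RPKM. The ER paralogs were lower: HSP90B1 had 668 ± 21.3 and HSPA5 382 ± 18.1 RPKM. HSPB1, another small heat shock protein, had 688 ± 25.2 RPKM, and its libraries overlapped those of HSP90B1 below it in the order. At the other end stood DNAJB9 at 9.61 ± 0.333 RPKM, DNAJB4 at 5.72 ± 0.517, HSPA4L at 5.07 ± 0.208 and HSPA1A at 0.997 ± 0.0846. The other tested members lay between. Besides HSPB1 and HSP90B1, the neighbours whose DMSO libraries overlapped were PDIA4 and HSPA9, HYOU1 and HSPA4, HSPA4 and DNAJB11, SDF2L1 and DNAJA2, DNAJA2 and BAG3, DNAJB6 and HSPE1, and HSPA13 and DNAJC3.

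**Figure D1:**
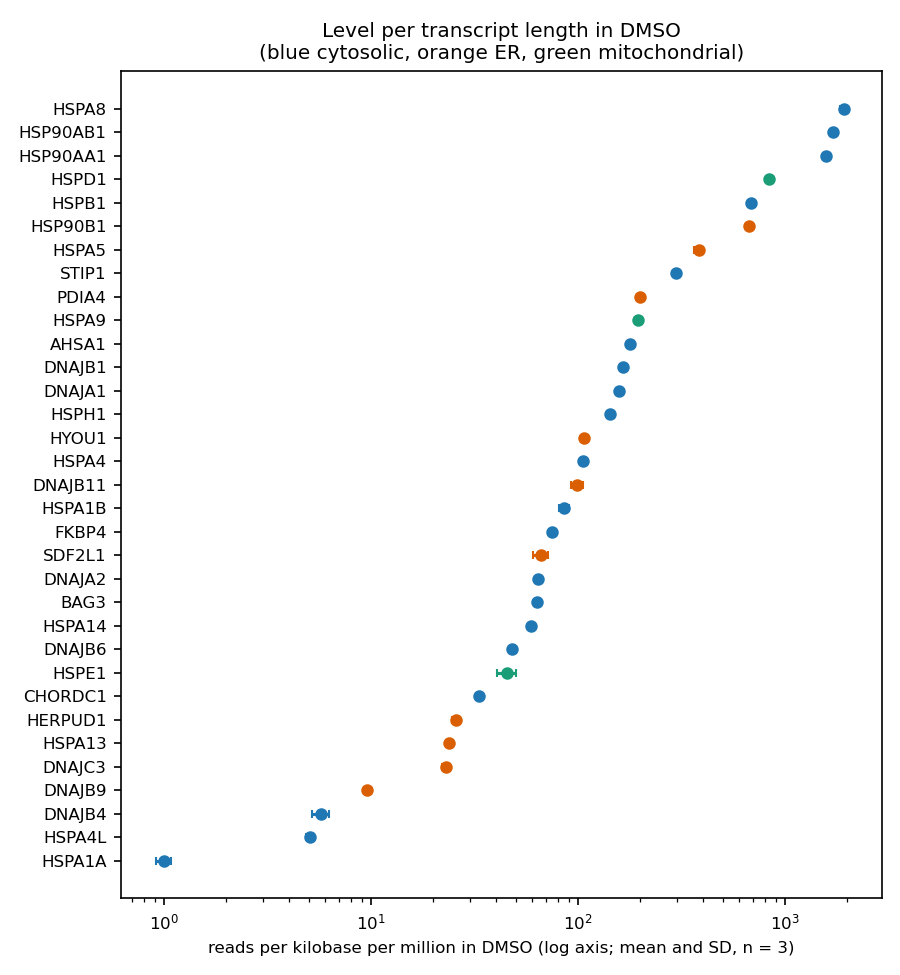
Mean level in DMSO of each tested chaperone, in RPKM on a log axis, with whiskers for the SD of 3 libraries; blue points are cytosolic, orange ER and green mitochondrial genes. HSPA8 sits at the top with 1927 and HSPA1A at the bottom with 0.997.

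Changes were called by edgeR's quasi-likelihood test with Benjamini-Hochberg adjustment over all 13619 genes tested, at an adjusted p under 0.05; the 3 comparisons with DMSO share the same 3 control libraries. With TCDD, 9 members rose and 1 fell of 33, beside 11.7% of all genes called (5.91% higher, 5.83% lower). With kynurenine, 1 member rose and none fell, beside 0.294% of all genes (0.154% higher, 0.14% lower); DESeq2 gave 2 higher and 0 lower, and no member was lower at an unadjusted p under 0.05. With CH223191, 4 members rose and 12 fell, beside 32.8% of all genes (15.9% higher, 16.9% lower). Of all genes called with CH223191 48.6% were higher, but 58.9% when libraries were scaled by their totals alone, and then 4 members rose and 8 fell. In a joint test of the 4 groups 29 of 33 members differed, beside 43.6% of all genes; HSPA1A, DNAJB4, HYOU1 and PDIA4 did not pass.

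These shares have to be read against level, since most members are abundant and abundant genes are called more often. Of the 2426 genes averaging 100 CPM or more, 8.9% rose and 13.6% fell with TCDD, and 11.6% rose and 33.6% fell with CH223191. The 9 members of 33 that rose with TCDD exceed the first of these shares, and the 12 of 33 that fell with CH223191 lie near the last. Both readings are rough, because some of the 33 members average less than 100 CPM. Among these are HERPUD1 of the 9 that rose and HSPA4L and SDF2L1 of the 12 that fell. The count with TCDD rested on single libraries: 5 members were called without DMSO 1 (2 cytosolic, 3 ER) and 6 without TCDD 3 (2 cytosolic), and cytosolic calls numbered 3 without TCDD 1. After removal of trends with GC content and transcript length, 4 members rose and 0 fell with TCDD, and 4 rose and 18 fell with CH223191. The calls over all genes also moved there: with TCDD they numbered 1190, against 1599, and more were lower than higher. The shares given above are from the main fit and cannot serve as a reference for these member counts. The 18 falls with CH223191 therefore cannot be read as a stronger result for the members. By compartment the counts were unlike each other, a difference that was not tested. Of the 20 cytosolic members tested, 10 fell and none rose with CH223191, where an unadjusted p under 0.05 gave 12 lower and 0 higher, and DESeq2 also gave 10 and 0. Of the 10 ER members 3 rose and 2 fell, and of the 3 mitochondrial members 1 rose. With TCDD 5 cytosolic members rose and none fell (8 higher and 1 lower at an unadjusted p under 0.05, 6 and 0 by DESeq2), and 4 ER members rose and 1 fell. For TCDD and CH223191 the shares of all genes at an unadjusted p under 0.05 were not counted. The member counts at that threshold therefore cannot be set against all genes.

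**Figure D2:**
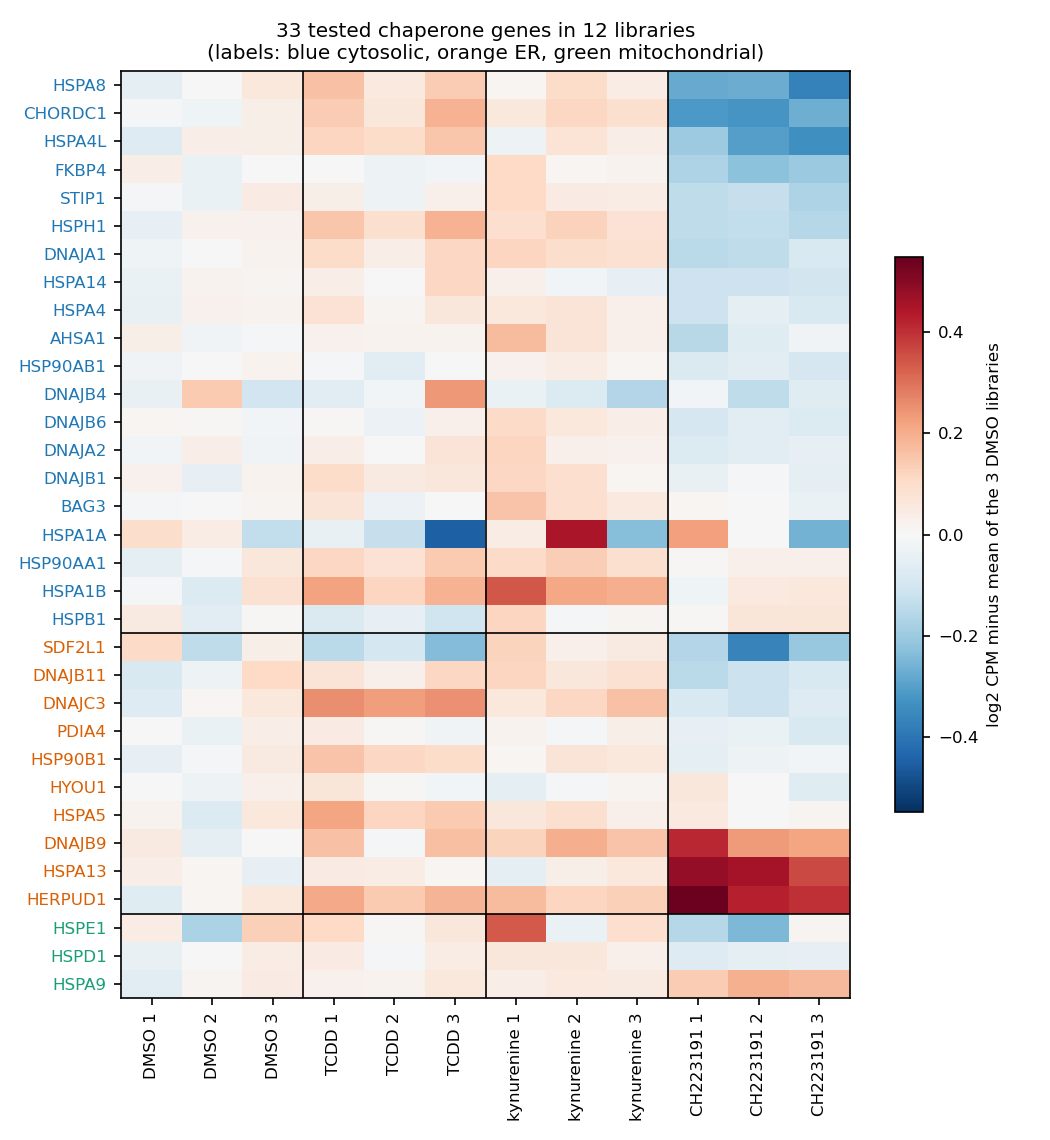
Level of each tested chaperone in each of the 12 libraries as log2 CPM minus the mean of the 3 DMSO libraries, red above and blue below, with genes grouped by compartment and ordered by their change with CH223191. HERPUD1, HSPA13 and DNAJB9 are dark red under CH223191 and the cytosolic genes at the top are blue there, while the dark cells of HSPA1A, with 1.73 to 3.29 CPM, fall in single libraries.

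**Figure D3:**
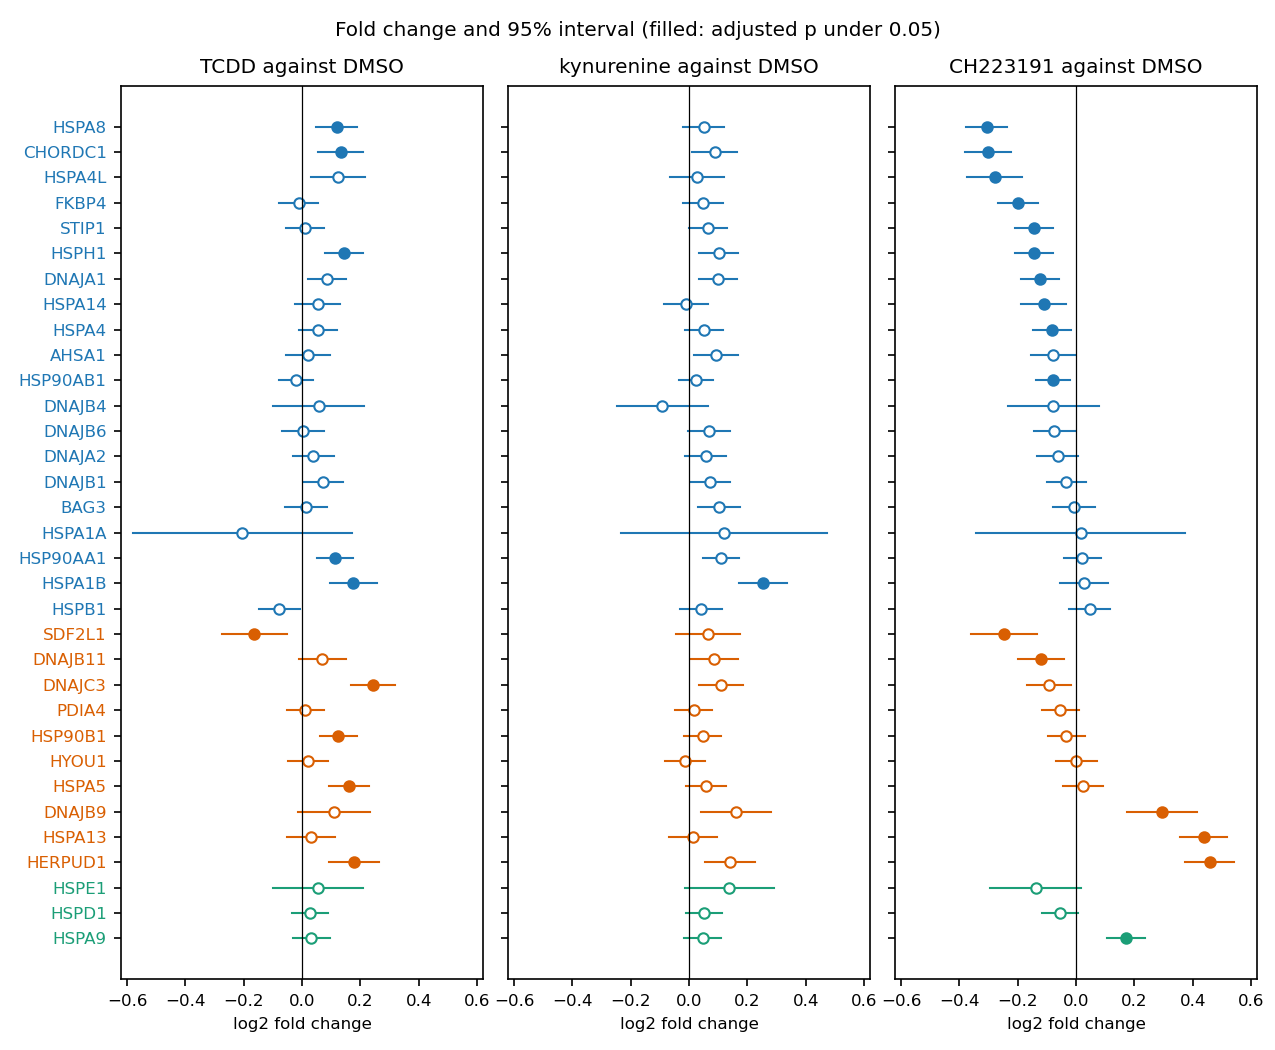
Log2 fold change against DMSO of each tested chaperone for the 3 compounds, with 95% intervals; filled points have an adjusted p under 0.05. TCDD has 10 filled points, kynurenine 1 and CH223191 16.

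The cytosolic HSP70 genes gave the largest cytosolic fall. HSPA8, which folds newly made and unfolded proteins in unstressed cells, is on chromosome 11 (chr11:123057489-123063230, minus strand, GRCh38). It stood at 4197, 4351 and 4538 CPM in DMSO, 4877, 4528 and 4809 in TCDD, 4395, 4672 and 4484 in kynurenine and 3593.5, 3611.5 and 3374.5 in CH223191. Every CH223191 library was below every other library, while 1 TCDD library lay inside the DMSO range. HSPA8 fell with CH223191 by 0.31 on the log2 scale (SE 0.03, edgeR adjusted p = 9.5e-09), which is 19.2% less RNA. It rose with TCDD by 0.12 (SE 0.03, adjusted p = 0.019), a call that did not hold when DMSO 1, TCDD 1 or TCDD 3 was left out or GC and length trends were removed (adjusted p up to 0.16). With kynurenine the log2 fold change was 0.05, with a 95% interval of -0.02 to 0.12.

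HSPA1B is the heat-inducible HSP70 (chr6:31827738-31830254, plus strand). It was at 213.2, 203.8 and 227 CPM in DMSO, 250.2, 232.8 and 244.6 in TCDD, 272.1, 248.8 and 246.6 in kynurenine and 210.8, 222.5 and 223.2 in CH223191. All TCDD and all kynurenine libraries lay above all DMSO libraries, and the CH223191 libraries lay among them. HSPA1B was the only member called with kynurenine, rising by 0.25 (SE 0.04, edgeR adjusted p = 0.00032, 19.2% more RNA), and it rose by 0.18 with TCDD (adjusted p = 0.0029). With CH223191 its log2 fold change was 0.03 (95% interval -0.06 to 0.11). Both calls held in every setting tried. Its neighbour HSPA1A (chr6:31815543-31817946) encodes a nearly identical RNA, so reads of the pair may be split or dropped in counting and the separate values are uncertain. HSPA1A had 1.73 to 3.29 CPM and took 0.701% to 1.31% of the pair's reads. Counted as 1 feature, the pair gave 0.17 with TCDD (adjusted p = 0.0033), 0.25 with kynurenine (0.00029) and 0.03 with CH223191 (0.64). HSPA14, an HSP70 that works at the ribosome, fell by 0.11 with CH223191 (104.2 ± 2.17 CPM in DMSO, 96.5 ± 0.483 in CH223191, adjusted p = 0.022). Leaving out DMSO 2, DMSO 3, CH223191 1 or CH223191 2, or scaling by library totals alone, ended that call (adjusted p up to 0.078).

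CHORDC1, an HSP90 cochaperone on the same chromosome as HSPA8 (chr11:90200429-90223077, minus strand), followed a like course. Its libraries had 101.6, 100.6 and 104.5 CPM in DMSO, 112.7, 106.7 and 116.8 in TCDD, 106.5, 110.6 and 108.7 in kynurenine and 82.2, 81.6 and 84.9 in CH223191. The CH223191 libraries were the lowest and the TCDD and kynurenine libraries all exceeded DMSO. CHORDC1 fell by 0.30 with CH223191 (SE 0.04, edgeR adjusted p = 1.4e-07) and rose by 0.13 with TCDD (adjusted p = 0.019); with kynurenine its 0.09 did not pass (adjusted p = 0.67). The call with TCDD ended when DMSO 1, DMSO 2, TCDD 1 or TCDD 3 was left out (adjusted p up to 0.19) and when GC and length trends were removed (0.55).

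The promoters of HSPA8, CHORDC1 and HSPA1B are printed because HSPA8 and CHORDC1 were the cytosolic members that fell most with CH223191 and HSPA1B the member that rose with kynurenine. Each sequence is the 250 bases before the RefSeq start of transcription, 5′ to 3′ on the gene's strand, from the GRCh38.p14 table: chr11:123062137-123062386 for HSPA8, chr11:90223050-90223299 for CHORDC1 and chr6:31827488-31827737 for HSPA1B. The gene spans given above are from GENCODE, whose outermost start can differ. By those spans the HSPA8 window lies inside the gene and the CHORDC1 window lies partly inside it. Capitals mark matches to a heat shock element of 2 units, GAANNTTC or TTCNNGAA, searched on both strands, where neighbouring matches share bases and so run together.
HSPA8: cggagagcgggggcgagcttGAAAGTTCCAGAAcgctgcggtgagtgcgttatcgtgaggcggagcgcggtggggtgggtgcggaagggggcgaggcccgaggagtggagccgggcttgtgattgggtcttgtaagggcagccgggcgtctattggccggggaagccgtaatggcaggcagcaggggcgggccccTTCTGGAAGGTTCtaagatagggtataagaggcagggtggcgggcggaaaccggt
CHORDC1: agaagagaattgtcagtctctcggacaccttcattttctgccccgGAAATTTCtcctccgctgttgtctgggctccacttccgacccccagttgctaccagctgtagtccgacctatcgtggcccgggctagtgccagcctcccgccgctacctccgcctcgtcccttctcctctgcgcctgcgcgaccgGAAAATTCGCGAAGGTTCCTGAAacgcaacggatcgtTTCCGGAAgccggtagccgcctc
HSPA1B: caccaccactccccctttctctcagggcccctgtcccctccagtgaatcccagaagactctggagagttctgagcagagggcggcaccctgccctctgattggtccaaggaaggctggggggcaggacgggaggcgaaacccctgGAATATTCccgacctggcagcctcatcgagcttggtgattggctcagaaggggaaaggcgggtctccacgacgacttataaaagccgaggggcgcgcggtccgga
HSPA8 held 4 such matches, the nearest ending 42 bases before the start, CHORDC1 held 6, the nearest 15 bases before it, and HSPA1B held 1, 97 bases before it. A promoter was found for 32 of the 35 members; HSPA14, FKBP4 and CRYAB had none in the table. The 2-unit element was present in 8 of 19 cytosolic members (42.1%), 0 of 10 ER members and 0 of 3 mitochondrial members, and in 11.7% of all 27305 promoters of this length. It was present in 3 of 8 cytosolic members that fell with CH223191 and in 4 of 10 that were tested and not called. Each gene was represented by the first start listed for it, and any other starts were not searched, so these shares depend on that choice. The longer 3-unit form, in which a further GAA or TTC follows in the same spacing and which therefore contains the shorter one, was in HSPA8, CHORDC1 and DNAJB6 and in 0.439% of all promoters. DNAJB6, a J protein that holds back protein clumps, had 119.2 ± 1.23 CPM in DMSO and 113.2 ± 1.39 in CH223191, with a log2 fold change of -0.075 that did not pass (edgeR adjusted p = 0.1). The AHR core element GCGTG was in 12 of 32 members (37.5%) and in 31.9% of all promoters; it was in none of the 3 promoters printed here. These matches describe letters within this window and are not evidence of binding.

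All 3 HSP110 genes, the nucleotide exchange factors of HSP70, fell with CH223191. HSPA4L (chr4:127781821-127840733) was at 51.2, 55.1 and 55 CPM in DMSO, 58.3, 57.6 and 59.7 in TCDD, 52.7, 56.6 and 55.2 in kynurenine and 46.8, 43.5 and 42.5 in CH223191. The CH223191 libraries were again the lowest, and the TCDD libraries were above all DMSO libraries. HSPA4L fell by 0.28 with CH223191 (SE 0.05, edgeR adjusted p = 1.4e-05); its 0.12 with TCDD did not pass (adjusted p = 0.079). HSPH1 (chr13:31134973-31162388) had 728.3, 763.7 and 764.8 CPM in DMSO, 836.3, 799.6 and 858.4 in TCDD, 802.7, 822 and 795 in kynurenine and 682.4, 683.8 and 674.8 in CH223191. No TCDD, kynurenine or CH223191 library of HSPH1 lay within the DMSO range. HSPH1 fell by 0.145 with CH223191 (adjusted p = 0.00059) and rose by 0.14 with TCDD (adjusted p = 0.0022), and of the 20 settings tried the removal of GC and length trends was the one that ended the second call (adjusted p = 0.072). With kynurenine it was at 0.10 (adjusted p = 0.31). HSPA4 fell by 0.08 with CH223191 (506 ± 12.7 CPM in DMSO, 477.8 ± 10 in CH223191, adjusted p = 0.044); 15 of 20 other settings ended that call (adjusted p up to 0.17), among them leaving out DMSO 2 or 3, Kyn 2 or 3, or any TCDD or CH223191 library.

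HSP90 is encoded in the cytosol by a stress-inducible gene and a constitutive one, and the pair is given side by side. The inducible HSP90AA1 (chr14:102080742-102139699) had 4930.7, 5064 and 5327 CPM in DMSO, 5533.5, 5388 and 5637 in TCDD, 5497, 5610.2 and 5423 in kynurenine and 5126, 5209.7 and 5213 in CH223191. Its TCDD and kynurenine libraries all exceeded DMSO, while those of CH223191 lay within the DMSO range. HSP90AA1 rose by 0.11 with TCDD (SE 0.03, edgeR adjusted p = 0.013), a call that ended without DMSO 1 or TCDD 3 (adjusted p up to 0.14) and with GC and length trends removed (0.091). With kynurenine it was also at 0.11 (adjusted p = 0.17 by edgeR, 0.031 by DESeq2), and with CH223191 at 0.02. The constitutive HSP90AB1 (chr6:44246166-44253888) had 4379.8 ± 57.2 CPM in DMSO, 4312 ± 85.4 in TCDD, 4453 ± 50.6 in kynurenine and 4148 ± 42.8 in CH223191. It fell by 0.08 with CH223191 (adjusted p = 0.033), a call lost in 12 of 20 settings (adjusted p up to 0.12), among them leaving out DMSO 2 or 3, TCDD 3, Kyn 3 or any CH223191 library.

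Among HSP90 cochaperones, FKBP4 and STIP1 fell with CH223191 besides CHORDC1. FKBP4, a prolyl isomerase found in steroid receptor complexes, had 284.5, 270.9 and 278 CPM in DMSO, 278.5, 272.7 and 275 in TCDD, 299.8, 279.9 and 281.2 in kynurenine and 246.9, 237.8 and 241.2 in CH223191. STIP1, which bridges HSP70 and HSP90, had 632.2, 620.8 and 655 CPM in DMSO, 649.5, 623.1 and 649 in TCDD, 686.5, 655 and 654.7 in kynurenine and 577, 582.7 and 564.9 in CH223191. For both genes the 3 CH223191 libraries were below all 9 others, and the TCDD values overlapped DMSO. FKBP4 fell by 0.20 (edgeR adjusted p = 1.8e-05) and STIP1 by 0.15 (adjusted p = 0.00057). AHSA1, which speeds the HSP90 ATPase, was at -0.08 with CH223191 (adjusted p = 0.099) and 0.02 with TCDD. BAG3, which links HSP70 to autophagy and is strongly inducible by heat, was at -0.01 with CH223191 (95% interval -0.08 to 0.06) and at 0.10 with kynurenine (adjusted p = 0.4).

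Of the 5 J proteins of the cytosol, DNAJA1, a partner of HSPA8, was called. It had 361.1, 368.2 and 372.3 CPM in DMSO, 394.4, 376.2 and 397.9 in TCDD, 399, 392.4 and 389 in kynurenine and 331.5, 333.8 and 346.2 in CH223191. The 4 groups stood in 3 separate bands, with CH223191 lowest, DMSO in the middle and the TCDD and kynurenine libraries mixed above. DNAJA1 fell by 0.12 with CH223191 (edgeR adjusted p = 0.0032), and its higher means did not pass with TCDD (0.085, adjusted p = 0.083, though 0.043 by DESeq2) or kynurenine (0.10, adjusted p = 0.33). DNAJA2 was at -0.06, DNAJB1 at -0.03 and DNAJB4 at -0.08 with CH223191, none of them called. DNAJB1, an inducible J protein, had 371.2 ± 9.64 CPM in DMSO and 390.3 ± 7.47 in TCDD (adjusted p = 0.17). HSPB1, which holds unfolded proteins without ATP, had 534.5 ± 19.6 CPM in DMSO and 506.5 ± 11.1 in TCDD, a log2 fold change of -0.08 that did not pass (adjusted p = 0.16).

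**Figure D4:**
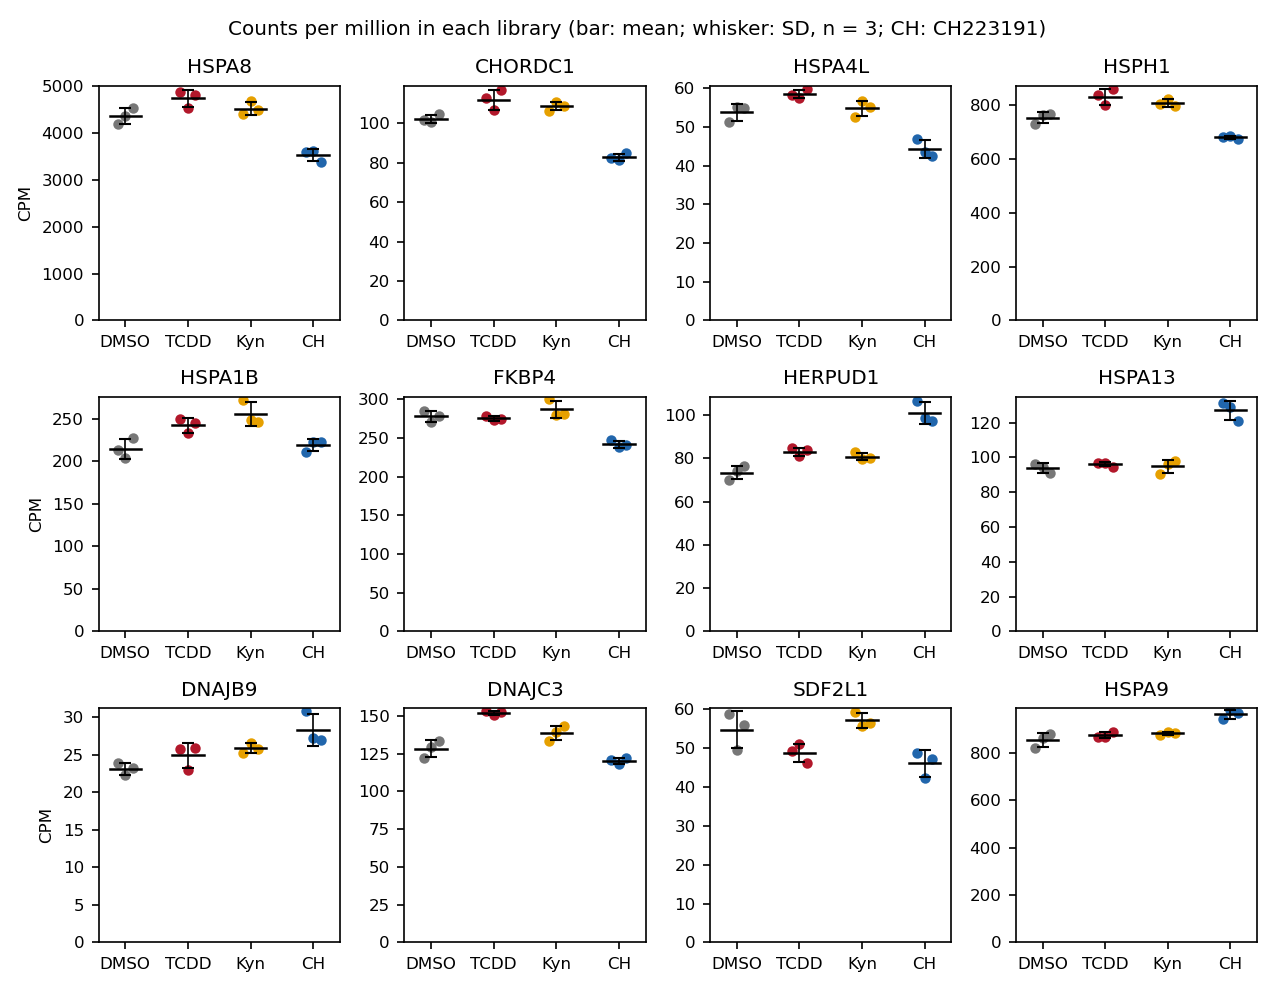
CPM in each library for 12 chaperones, with a bar for the mean and a whisker for the SD of 3 libraries per group (Kyn is kynurenine and CH is CH223191); every axis starts at 0. HSPA8, CHORDC1, HSPA4L, HSPH1 and FKBP4 are lowest in CH223191, and HERPUD1, HSPA13 and DNAJB9 highest.

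Among the ER members, HERPUD1, HSPA13 and DNAJB9 rose with CH223191, and HERPUD1, HSPA5, HSP90B1 and DNAJC3 rose with TCDD. HERPUD1, an ER membrane protein that assists the removal of misfolded proteins, was called with both. Its gene (chr16:56932142-56944864, plus strand) gave 70.1, 74 and 76.3 CPM in DMSO, 84.7, 81.1 and 83.7 in TCDD, 82.8, 79.6 and 80.2 in kynurenine and 106.6, 98.8 and 97.1 in CH223191. All 9 treated libraries lay above DMSO, and the CH223191 libraries lay above the rest. HERPUD1 rose by 0.46 with CH223191 (SE 0.04, edgeR adjusted p = 6.3e-11, 37.4% more RNA) and by 0.18 with TCDD (adjusted p = 0.004); its 0.14 with kynurenine did not pass (adjusted p = 0.26).

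HSPA13, an HSP70 relative attached to microsomes (chr21:14371115-14383484), had 96.3, 94.7 and 90.9 CPM in DMSO, 96.8, 96.5 and 94.6 in TCDD, 90.7, 96.1 and 97.8 in kynurenine and 131.3, 129 and 120.7 in CH223191. Only the CH223191 libraries stood apart. HSPA13 rose by 0.44 with CH223191 (SE 0.04, edgeR adjusted p = 5.2e-11), while its log2 fold changes with TCDD and kynurenine were 0.03 (95% interval -0.05 to 0.11) and 0.01 (-0.07 to 0.09). DNAJB9, a J protein of the ER lumen that holds back IRE1 (chr7:108569867-108574850), had 23.9, 22.3 and 23.2 CPM in DMSO, 25.8, 23 and 25.9 in TCDD, 25.2, 26.6 and 25.8 in kynurenine and 30.8, 27.2 and 26.9 in CH223191. Its CH223191 libraries were the highest and its kynurenine libraries also all exceeded DMSO. DNAJB9 rose by 0.29 with CH223191 (SE 0.06, adjusted p = 0.00019); 0.16 with kynurenine and 0.11 with TCDD did not pass (adjusted p = 0.52 and 0.27).

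HSPA5, the ER HSP70 and the usual gauge of ER stress (chr9:125234853-125241382, minus strand), had 1516, 1420.6 and 1559.7 CPM in DMSO, 1739, 1628 and 1655 in TCDD, 1564, 1589 and 1527.5 in kynurenine and 1553, 1502 and 1511.5 in CH223191. The TCDD libraries stood above all others, and the CH223191 libraries lay inside the DMSO range. HSPA5 rose by 0.16 with TCDD (SE 0.03, edgeR adjusted p = 0.0013), whereas with CH223191 its log2 fold change was 0.02, with a 95% interval of -0.05 to 0.09. HSP90B1, the ER HSP90 (chr12:103930107-103953931, plus strand), had 1805, 1851.5 and 1923 CPM in DMSO, 2075, 2012 and 1995 in TCDD, 1872.5, 1955 and 1933 in kynurenine and 1791, 1821 and 1837 in CH223191. Here too TCDD was highest and did not overlap DMSO. HSP90B1 rose by 0.12 with TCDD (adjusted p = 0.0062; 0.06 without DMSO 1 and 0.51 after removal of GC and length trends) and was at -0.03 with CH223191.

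DNAJC3, an ER cochaperone that also restrains the kinase PERK (chr13:95677139-95794988), showed the largest rise of any member with TCDD. It had 122.2, 129.2 and 133.7 CPM in DMSO, 153.1, 150.5 and 152.7 in TCDD, 133.6, 139.1 and 143.3 in kynurenine and 121, 118.1 and 122 in CH223191. The TCDD libraries were above all others, and each CH223191 library was below each DMSO library. DNAJC3 rose by 0.24 with TCDD (SE 0.04, edgeR adjusted p = 1.4e-05), a call kept in every setting; -0.09 with CH223191 did not pass (adjusted p = 0.052). SDF2L1, a small partner of DNAJB11 and HSPA5 (chr22:21642302-21644299, plus strand), had 58.7, 49.4 and 55.8 CPM in DMSO, 49.1, 50.9 and 46.2 in TCDD, 59.3, 55.5 and 56.4 in kynurenine and 48.7, 42.2 and 47.2 in CH223191. The CH223191 libraries lay below DMSO, while TCDD overlapped it. SDF2L1 fell by 0.25 with CH223191 (adjusted p = 0.00064) and by 0.16 with TCDD (adjusted p = 0.049), the latter lost in 10 of 20 settings. Among these were leaving out DMSO 1, DMSO 3, TCDD 1, TCDD 3, Kyn 2 or CH223191 3, with an adjusted p up to 0.32.

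DNAJB11, a J protein that serves HSPA5, fell by 0.12 with CH223191 (162.2 ± 11.1 CPM in DMSO, 149.3 ± 3.37 in CH223191, edgeR adjusted p = 0.017). Without DMSO 3, CH223191 1 or CH223191 2, and with library totals alone, that call ended (adjusted p up to 0.24). HYOU1, the ER counterpart of HSP110, and PDIA4, a protein disulfide isomerase, were not called with any compound. HYOU1 had 491.9 ± 9.77 CPM in DMSO, 498.7 ± 15 in TCDD, 487.4 ± 11.1 in kynurenine and 492.1 ± 21.9 in CH223191, and the 95% interval of its log2 fold change with CH223191 ran from -0.07 to 0.07. PDIA4 had 550.3 ± 14.3 CPM in DMSO and 530.1 ± 8.89 in CH223191 (interval -0.12 to 0.01).

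Promoters of 4 ER members are printed because each holds an ER stress element, a site that UPR factors bind, while their values with CH223191 ranged from a fall to a rise. They are the 250 bases before the RefSeq start on GRCh38.p14, read on the gene's strand: chr16:56931892-56932141 for HERPUD1, chr9:125241344-125241593 for HSPA5, chr12:103930160-103930409 for HSP90B1 and chr22:21642052-21642301 for SDF2L1. By the GENCODE spans given above, the HSP90B1 window lies inside the gene and the HSPA5 window lies partly inside it. Capitals mark, on either strand, the ER stress element (CCAAT, then 9 bases of any kind, then CCACG) in HSPA5 and HSP90B1, and ER stress element II (ATTGG, then 1 base of any kind, then CCACG) in HERPUD1 and SDF2L1.
HERPUD1: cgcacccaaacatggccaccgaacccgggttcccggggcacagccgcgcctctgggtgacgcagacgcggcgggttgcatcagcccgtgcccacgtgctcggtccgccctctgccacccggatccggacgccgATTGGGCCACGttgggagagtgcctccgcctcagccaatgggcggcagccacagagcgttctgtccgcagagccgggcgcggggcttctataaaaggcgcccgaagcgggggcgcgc
HSPA5: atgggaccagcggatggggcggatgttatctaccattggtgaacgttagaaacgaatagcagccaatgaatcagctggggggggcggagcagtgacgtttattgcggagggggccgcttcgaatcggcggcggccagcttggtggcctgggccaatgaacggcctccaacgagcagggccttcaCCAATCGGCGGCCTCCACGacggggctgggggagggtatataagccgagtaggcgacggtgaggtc
HSP90B1: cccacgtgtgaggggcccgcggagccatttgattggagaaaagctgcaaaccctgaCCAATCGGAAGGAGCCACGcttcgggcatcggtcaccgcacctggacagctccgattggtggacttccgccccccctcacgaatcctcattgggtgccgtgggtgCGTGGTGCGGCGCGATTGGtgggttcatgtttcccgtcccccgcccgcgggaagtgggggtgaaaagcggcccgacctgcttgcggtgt
SDF2L1: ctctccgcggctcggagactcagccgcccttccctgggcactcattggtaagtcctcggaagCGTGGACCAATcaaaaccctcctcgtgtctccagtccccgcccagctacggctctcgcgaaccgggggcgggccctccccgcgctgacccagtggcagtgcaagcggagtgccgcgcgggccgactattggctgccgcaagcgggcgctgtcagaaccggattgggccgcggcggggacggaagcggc
The first element was in 2 of 10 ER members and in 0.0806% of all 27305 promoters, with 2 matches in HSP90B1. The second was in 3 of 10 ER members, the third being HYOU1, and in 0.0513% of all promoters; neither was in any of the 19 cytosolic members. With CH223191, HERPUD1 rose, SDF2L1 fell, and HSPA5, HSP90B1 and HYOU1 were not called. DNAJB9 and HSPA13, which also rose with CH223191, held neither element in this window. TGACGTGG, the UPR element core, was in HYOU1 alone among the members and in 0.667% of all promoters.

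In mitochondria, HSPA9, the HSP70 that pulls proteins in through the inner membrane (chr5:138553756-138575675), rose with CH223191. It had 821.9, 864.8 and 881.3 CPM in DMSO, 869, 866.1 and 890.3 in TCDD, 877.5, 889.1 and 885.3 in kynurenine and 943.7, 980.4 and 967.2 in CH223191. The CH223191 libraries were above all others, and TCDD overlapped DMSO. HSPA9 rose by 0.17 (SE 0.03, edgeR adjusted p = 5.4e-05). The chaperonin pair HSPD1 and HSPE1, which form the folding barrel and its lid, were at -0.06 and -0.14 with CH223191 and were not called (adjusted p = 0.16 and 0.17). HSPE1 shares 10.5% of its exon bases with the readthrough gene HSPE1-MOB4 and 7.41% with HSPD1 on the other strand, so its count of 25.2 ± 2.68 CPM in DMSO may miss or mix reads.

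Kynurenine gave small positive values across the members. Of the 33 tested, 30 had a log2 fold change above 0, against 48.1% of all genes, and 12 had an unadjusted p under 0.05 and a higher mean, against 3.02% of all genes. Of the genes averaging 100 CPM or more, 51% were above 0 and 3.87% had an unadjusted p under 0.05 and a higher mean. The median was 0.065 and the highest value after HSPA1B was 0.16, for DNAJB9. HSP90AA1 had the lowest adjusted p after HSPA1B at 0.17. Positive values were not particular to kynurenine. With TCDD, against the same DMSO libraries, 28 of 33 members were above 0, with a median of 0.053 beside 0.00084 over all genes. At an unadjusted p under 0.05, 12 were higher and 2 lower with TCDD, a threshold at which the share of all genes was not counted. The part of the shared DMSO libraries in both shifts was not tested. In the median over cytosolic members of log2 CPM minus the DMSO mean, the kynurenine libraries were at 0.11, 0.07 and 0.03, the DMSO libraries at -0.01, 0.00 and 0.02, the TCDD libraries at 0.05, 0.01 and 0.07 and the CH223191 libraries at -0.10, -0.07 and -0.08. Kynurenine replicate 1 was thus the highest and all CH223191 libraries were below DMSO. DESeq2 called 2 members with kynurenine, HSPA1B and HSP90AA1.

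**Figure D5:**
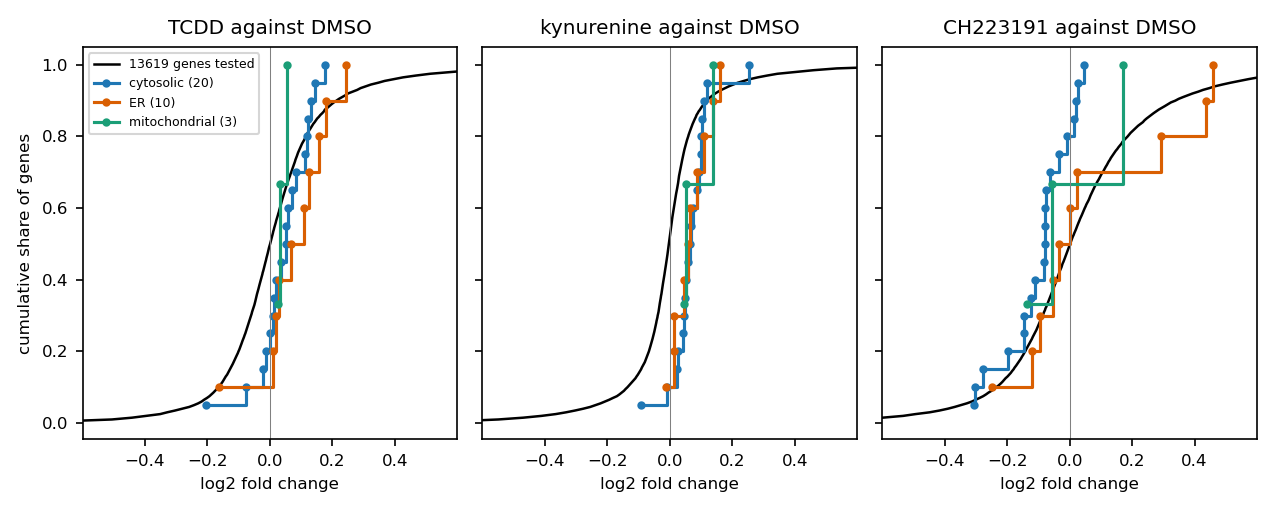
Cumulative share of genes against log2 fold change, for all 13619 genes tested (black) and for the 20 cytosolic, 10 ER and 3 mitochondrial chaperones, with the axis limited to changes between -0.6 and 0.6. With CH223191 the blue line lies left of the black one over most of its height and ends at 0.05, and 3 ER genes lie to the right, at 0.29 to 0.46.

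Comparing the compounds directly, 20 members were higher and 5 lower in TCDD than in CH223191, beside 37.1% of all genes called (19% higher, 18.1% lower). Similarly 23 were higher and 3 lower in kynurenine than in CH223191, beside 33% of all genes (16.6% higher, 16.4% lower); of those calls 50.4% were higher, and 39.1% with library totals alone. Of the genes averaging 100 CPM or more, 32.9% were higher in TCDD and 33.9% higher in kynurenine than in CH223191. Of the 20 cytosolic members, 14 were higher and 1 lower in TCDD, and 17 higher and 0 lower in kynurenine. The members highest in TCDD relative to CH223191 were CHORDC1 (0.44, edgeR adjusted p = 3e-11), HSPA8 (0.43, adjusted p = 2.3e-12) and HSPA4L (0.40, adjusted p = 1.4e-08). HSPA13 (-0.41), HERPUD1 (-0.28), DNAJB9 (-0.18), HSPA9 (-0.14) and HSPB1 (-0.12) were the members lower in TCDD; the call of DNAJB9 ended without TCDD 2 or CH223191 1 (adjusted p up to 0.17) and that of HSPB1 with GC and length trends removed (0.26). HSPA8, HSPH1 and CHORDC1 were the members that were called in opposite directions by the 2 compounds against the shared DMSO libraries.

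TCDD and kynurenine differed in few members: 1 was higher and 2 lower in TCDD, beside 9.19% of all genes (5.1% higher, 4.09% lower). DNAJC3 was higher by 0.13 (edgeR adjusted p = 0.017), SDF2L1 lower by 0.23 (adjusted p = 0.0058) and HSPB1 lower by 0.12 (adjusted p = 0.027). HSPA5, at 0.10, had an adjusted p of 0.051. Without TCDD 3 the members called numbered 0, and the calls of DNAJC3 and HSPB1 also ended without TCDD 1 or Kyn 1 or with GC and length trends removed (adjusted p up to 0.11 and 0.36). For HSPA1B the difference did not pass (-0.08, 95% interval -0.16 to 0.00).

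The wider folding network was read from lists of genes chosen by function. Of the sensors and factors of the UPR, 9 of 17 rose and 2 fell with CH223191, beside 15.9% and 16.9% of all genes. The stress transcription factor ATF4 was at 274.9 ± 12.8 CPM in DMSO and 523.1 ± 10.5 in CH223191 (log2 0.93, edgeR adjusted p = 2.2e-21), and its target TRIB3 at 122.7 ± 3.08 and 246.7 ± 7.41 (1.01). XBP1, the factor activated by IRE1, rose by 0.80, from 149.5 ± 5.73 to 260.4 ± 0.308 CPM, and DDIT3, a factor linked to cell death in ER stress, by 1.02 from a low 5.79 ± 1.05 CPM. These 4 genes had the smallest p of the list, and all of them rose. PPP1R15A went the other way, with 63 ± 1.06 CPM in DMSO and 52.7 ± 1.19 in CH223191. The lowest log2 fold change of the list with CH223191 was -0.257. With TCDD 2 of 17 rose (PPP1R15A by 0.37, CREB3L2 by 0.27) and TRIB3 fell by 0.15, so that 17.6% were called, beside 11.7% of all genes. With kynurenine none was called, 2 being lower at an unadjusted p under 0.05, and DESeq2 calling none.

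Of 42 other genes of ER folding and degradation tested, 2 rose and 14 fell with CH223191 (38.1% called, beside 32.8% of all genes, and 33.6% of genes averaging 100 CPM or more fell), with a median of -0.06 beside 0.001 over all genes. FKBP14, an ER prolyl isomerase, fell by 0.52 (37.5 ± 2.79 CPM in DMSO, 26.2 ± 0.412 in CH223191, edgeR adjusted p = 8.2e-09), SDF2, the paralog of SDF2L1, by 0.255, KDELR2, which returns ER proteins from the Golgi, by 0.23 and DERL1, part of the ER removal channel, by 0.20. With TCDD SEL1L and ERLEC1, both parts of ER-associated degradation, rose by 0.17 and 0.13, WFS1 fell by 0.12, and the other 39 of 42 were not called. The 7.14% called lie below the 11.7% of all genes called with TCDD.

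In the cytosol, 4 of 38 further chaperones and cochaperones rose and 6 fell with CH223191 (26.3%, beside 32.8% of all genes), where DESeq2 gave 1 and 6. SERPINH1, a collagen chaperone that resides in the ER although the list is of cytosolic genes, fell by 0.20, SGTA, a cochaperone of HSP70, by 0.14, and the J proteins DNAJC9 and DNAJC2 each by 0.16. These 4 genes had the smallest p of the list, and all of them fell. The list as a whole was mixed, with 18 of 38 above 0 and log2 fold changes from -0.199 to 1.266. Of the 8 subunits of the chaperonin CCT, TCP1 fell by 0.14 and CCT6A by 0.11, and 7 of 8 were below 0; the 25% called lower lie beside 16.9% of all genes and 33.6% of those averaging 100 CPM or more. Among partners of HSP90 in the AHR complex and related cochaperones, PPP5C fell by 0.14 and PTGES3 by 0.09. HSF1 fell by 0.11 with CH223191 (92 ± 3.95 CPM in DMSO, 84.9 ± 4.02 in CH223191, edgeR adjusted p = 0.036) although the 2 groups' libraries overlapped, and HSF2 rose by 0.20 with TCDD (adjusted p = 0.022, not called by DESeq2). With TCDD HSPBP1 and STUB1, which both act on HSP70, fell by 0.18 and 0.15, and the other 36 of 38 were not called. The 5.26% called lie beside 11.7% of all genes called (5.83% lower). At an unadjusted p under 0.05, 8 of the 38 were lower and 2 higher, a threshold at which the share of all genes was not counted. Of 16 further mitochondrial folding genes 4 rose and 4 fell with CH223191 (50% called, beside 32.8% of all genes). The protease LONP1 was at 0.27, the HSPA9 exchange factors GRPEL2 at 0.36 and GRPEL1 at -0.28, and TIMM44, the membrane anchor of HSPA9, at 0.31. With TCDD 4 fell, by 0.12 to 0.15, which is 25% beside 5.83% of all genes and 13.6% of those averaging 100 CPM or more. With kynurenine edgeR called 0 genes in each of these lists, with 0 to 5 genes per list at an unadjusted p under 0.05, and DESeq2 called HSP90AA1 alone.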

How the data were processed

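PolyA RNA from 12 libraries was sequenced. The authors deposited raw counts of reads per gene symbol. Per the labels' protocols reads were aligned to hg38 with STAR, sorted with SAMtools and counted with HTSeq; the submitters' processing notes name Trim Galore, STAR 2.7.2b, SAMtools 1.9 and HTSeq, and the protocols another STAR version. The strand setting is not given in the sources used here, so overlapping genes on opposite strands may share reads. Rows for unassigned reads (6.59% to 8.48% in no feature) were left out of library totals. From the counts, edgeR 4.0.16 in R 4.3.3 (TMM factors 0.9884 to 1.016; filterByExpr, minimum count 10) tested 13619 genes in 1 fit of all 12 libraries, with p-values adjusted within each comparison. CPM use TMM-scaled totals. Coordinates, lengths and exon overlaps are from GENCODE on GRCh38, promoters from RefSeq. Alternatives were RLE factors, library totals alone, 2 other filters, a replicate block, DESeq2 1.42.0, fits of only the 2 groups compared, removal of GC and length trends, HSPA1A and HSPA1B merged, and leaving out each library. All members were named; values in every library were given for called members of smallest adjusted p, at most 10 per comparison, and for those that differed in direction; up to 4 genes of smallest p were named per related list. The code was tested on simulated data. The members and lists were chosen with earlier results of these data known.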

Additional observations from a re-analysis of the deposited data

How the results depend on the processing

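In every setting tried, 4 of 10 member calls with TCDD (HSPA1B, HSPA5, DNAJC3 and HERPUD1), 1 of 1 with kynurenine and 12 of 16 with CH223191 held, as did 0 of 3 between TCDD and kynurenine, 17 of 25 between TCDD and CH223191 and 19 of 26 between kynurenine and CH223191. After removal of trends with GC content and transcript length, the members called with TCDD numbered 4, of which 1 was cytosolic and 3 were ER genes. Over all genes the calls with TCDD numbered 1190 in that setting, against 1599. Between TCDD and kynurenine 1 ER member was called after the removal. The cause was not tested. DESeq2 called 2 members with kynurenine, both cytosolic, and over all genes the kynurenine calls numbered 65 with no low-count filter and 26 when only the 2 groups compared were fitted, against 40; the cause was not tested. Counted as 1 feature with HSPA1B, which supplies nearly all reads of the pair, HSPA1A turned from below 0 to 0.173 (TCDD against DMSO) and 0.145 (TCDD against CH223191). Leaving out 1 library at a time gave 5 to 11 members with TCDD (2 to 6 cytosolic, 3 to 5 ER), the lowest without DMSO replicate 1, and 0 to 4 between TCDD and kynurenine (0 to 1 cytosolic, 0 to 3 ER), the lowest without TCDD replicate 3. The same library set the lowest counts over all genes: 805 to 1912 with TCDD and 576 to 1323 between TCDD and kynurenine. Members called with CH223191 ranged from 12 to 17. Same-numbered libraries did not deviate together (correlations -0.0554 to 0.0371 for the same number, -0.0528 to 0.0832 for others), and with the replicate number as a block the members called numbered 10 with TCDD, 1 with kynurenine, 14 with CH223191, 3 between TCDD and kynurenine, 25 between TCDD and CH223191 and 25 between kynurenine and CH223191. DESeq2 and the fits of only 2 groups were not run for the joint test. Genes of low count limit precision: HSPA1A, at 1.73 to 3.29 CPM, has an SE of 0.185 with TCDD, and HSPB8 and CRYAB were not testable.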
